A study of Mus musculus with 1073 samples.

Results

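The endothelium of the mouse yolk sac at embryonic day 8.5 (E8.5 Endo) was represented by 79 single-cell transcriptomes, out of 926 that the authors kept from 13 sorted populations. Its cells were chosen by their sort gate alone, TER119- CD41- CDH5+, and all 79 cells that the deposited tables hold for it passed the authors' filter. A supplementary list of the study gives fewer captured cells for this population than the deposited tables, which were used here. TER119 marks erythroid cells, CD41 is the integrin alpha 2b of early haematopoietic cells and megakaryocytes, and CDH5 is VE-cadherin, the adhesion molecule of endothelial junctions. *Cdh5* and *Itga2b*, which encode the sorted proteins, were therefore used by the choice of cells, and their levels are no finding. Yolk sacs were pooled and the labels do not tie cells to embryos or pools, so each population counts as 1 sample. No test between populations was made, and all values below are given side by side as a description.

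The E8.5 Endo cells came from C57BL/6 yolk sacs and were captured on a Fluidigm C1 device, which isolates cells in microfluidic chambers before full-length cDNA is made. The populations set beside them came from the same strain unless stated otherwise. Haematopoietic progenitors (HPC) at E8.25 (73 cells) and E8.5 (89 cells) were TER119- CDH5+ CD41+, so that E8.5 HPC differed from E8.5 Endo in CD41 alone. HPC at E9.5 (46 cells) and E10.5 (87 cells) were TER119- CDH5- CD45+ CD41low. Megakaryocytes (Mk) were TER119- CDH5- CD41+ at E8.5 (37 cells) and TER119- CDH5- CD45- CD41high at E10.5 (73 cells). Primitive erythrocytes (EryP) were CD41- CDH5- TER119+ at E8.5 (66 cells), and only 3 EryP cells were kept at E10.5. Macrophages (Mac) at E10.5 (25 cells) were TER119- CDH5- CD41- CD45+. Endothelium at E10.5 (E10.5 Endo, 61 cells) was TER119- CD45- CD41- CDH5+. The extraembryonic mesoderm at E7.25 and E7.75 was sorted as GFP+ from embryos with 1 *Flk1*-GFP allele, and was released with trypsin rather than the collagenase and dispase used from E8.25 on.

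Endothelial cells line the vessels and are held together by VE-cadherin. Their growth and survival depend on vascular endothelial growth factor, which acts through the receptor encoded by *Kdr* (Flk1). In the yolk sac they first form a plexus of simple tubes that surrounds the earliest blood cells, and some endothelial cells give rise to blood progenitors through the transcription factor Runx1. Arteries and veins are later told apart by Notch pathway genes and the ligand *Efnb2* on the arterial side and by *Nr2f2* and the receptor *Ephb4* on the venous side.

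Depth was similar over the cells of E8.5 Endo. The shallowest cell had 1118365 counts, the median cell 1874645 and the deepest 2730963, and between 6710 and 9634 genes were detected (median 8437). The counts are reads and not molecules, since the protocol has no molecular identifiers. The intervals printed below are for shares of cells, taken as independent, and do not cover differences between embryos, pools or lanes. The median number of genes detected was 9053 in E8.5 HPC and 6412 in E10.5 Endo. E8.5 Endo was 1 lane of 1 flow cell, which also held the other E8.5 populations, E8.25 HPC and E7.25 mesoderm, while E10.5 Endo was on the other flow cell, so stage and flow cell cannot be told apart between the endothelial populations. The index pairs of the 79 cells were all distinct, and 73 of them were used again in the E8.5 HPC lane and 65 in the E10.5 Endo lane.

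Several cells went against what a single endothelial cell should hold. *Xist*, transcribed from the inactive X chromosome of female cells, and the summed counts of 4 Y-linked genes both reached 5 counts or more in 59 of the 79 cells (74.7%, exact 95% interval 63.6 to 83.8), against 40 of 89 cells in E8.5 HPC and 26 of 61 in E10.5 Endo. Both reached 50 counts or more in 15 of the 79 cells. One cell held 12 of 17 mesenchymal genes at 10 counts or more, where the next cell held 4 and the median cell 1. Another cell, the deepest, held 31 genes that were at 100 CPM or more there and averaged under 1 CPM in the other 78 cells, where the next cell held 19 and the median cell 5. Doublets were not called, and the part of these cells in the results was not tested beyond leaving them out. Those values are given beside the main counts below.

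The 6 genes proposed as markers of the population were detected in every one of its cells apart from *Emcn*. Levels are CPM as the authors scaled them with size factors, and a population's level is the mean over its cells. *Gap43*, a membrane-bound protein of axonal growth cones, lay between 20.4 and 646.9 CPM over the 79 cells, with a median of 246.9 and a mean of 279.8. The next population was E10.5 Endo at 100.6, followed by E8.25 HPC at 45.2 and E8.5 HPC at 31.7, and no *Gap43* count was found in E8.5 EryP. The log2 difference to E10.5 Endo, always taken between values of log2(mean CPM + 1), was 1.47, a 2.76-fold higher level, and 75 of the 79 cells lay above the median E10.5 Endo cell. None of the 79 exceeded the highest E10.5 Endo cell, so the ranges of single cells overlapped.

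*Klhl4*, a member of the kelch-like family, ranged from 37.0 to 2729 CPM with a median of 603.1 and a mean of 765. Its level was 335.7 in E10.5 Endo, 90.6 in E8.25 HPC and 53.0 in E8.5 HPC, and under 14 in each of the other 9 populations. *Vim*, the intermediate filament protein vimentin, ranged from 125.5 to 3958 CPM with a mean of 1875, against 1108 in E10.5 Endo, and its difference of 0.76 was below the 1 set for a gene to be called higher than in every other population. The 3 remaining markers were all higher in E10.5 Endo. *Kdr* had a mean of 739.3 CPM against 1527 in E10.5 Endo, and *Cdh5* 528.1 against 953.3. *Emcn*, the endothelial surface sialomucin endomucin, had a mean of 167.6 against 686.8 and was found in 69 of 79 cells, with a lowest value of 0 and a highest of 1524. All 3 were nevertheless above E8.5 HPC, by 2.27, 2.08 and 4.09 on the log2 scale. In 11, 14 and 16 of the 79 cells *Kdr*, *Cdh5* and *Emcn* were above the median E10.5 Endo cell. *Cdh5* was found in 1.52% of the E8.5 EryP cells, a population sorted to lack it, at a median depth of 2099062 counts.

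**Figure D1:**
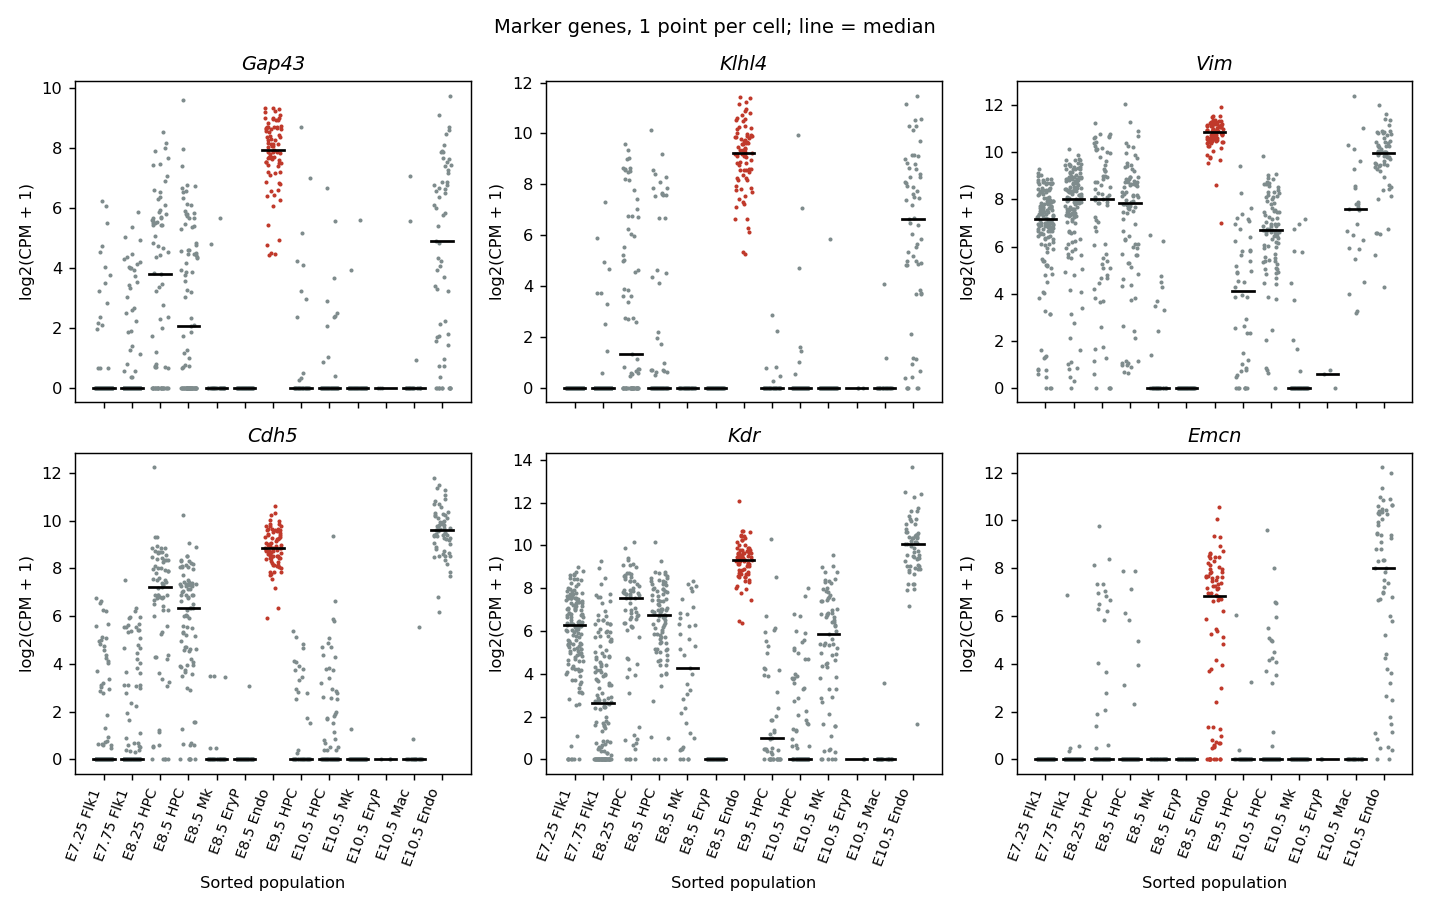
Each panel plots log2(CPM + 1) of 1 marker gene for every cell in the 13 sorted populations, with a line at the median. *Gap43* and *Klhl4* lay highest in E8.5 Endo, with means of 279.8 and 765 CPM, whereas *Cdh5*, *Kdr* and *Emcn* had their highest means in E10.5 Endo.

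To find what set E8.5 Endo apart, genes were required to reach 50 CPM and detection in at least 50% of its cells, and to exceed the highest of the other 12 populations by 1 or more on the log2 scale. Of 4204 genes that reached the level, 35 were called (0.833%), led by the secreted guidance ligand *Sema3a* and the peptide hormone *Apln*. The next population was E10.5 Endo for 17 of the 35, E8.25 HPC for 7 and E8.5 HPC for 3. In 12 of the 35 the gene was detected in all 79 cells, and 20 of the 35 were also 2 or more above E8.5 HPC. No gene was called lower than in every other population (0% of 1449), where the nearest was *Khsrp*, an RNA-binding protein, at 34.2 CPM against 59.9 in the next lowest population, a log2 difference of -0.79.

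Among secreted factors, *Sema3a*, which acts on neurons and vessels through neuropilin and plexin receptors, was at 60.2 CPM in E8.5 Endo and at 5.78 in E8.25 HPC, the next population. That log2 difference of 3.17 was the widest of the 35 on this scale, but with the mean of log2(CPM + 1), in which a few cells of very high level weigh less, it was 2.47 and *Flrt2* led at 4.54. The gene lies on chromosome 5 (GRCm38, 13125414 to 13602565, plus strand). It was far from uniform, with a lowest value of 0, a median of 7.78 and a highest of 730.8, and was detected in 51 cells. *Apln* (chromosome X, 48025146 to 48034853, minus strand) encodes apelin, the ligand of the receptor Aplnr. Its level of 91.9 CPM compared with 16.4 in E8.25 HPC, 4.22 in E10.5 Endo and 2.94 in E8.5 HPC, and 70 cells had it, with a median of 56.0 and a highest value of 506.2. Both ligands were absent from all E8.5 EryP cells.

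*Igf1*, the insulin-like growth factor 1 gene on chromosome 10, was present in every cell, from 271.1 to 5038 CPM with a median of 1384. Its mean of 1468 was 2.54-fold that of E8.25 HPC (577.9), and E10.5 Endo (489.1) and E8.5 HPC (459.6) followed. *Nrg1*, a ligand of the ErbB receptors, had a mean of 237.4 CPM against 114.8 in E8.5 HPC and was found in 78 cells. Other members act in receiving or shaping signals. *Acvr1*, a type I receptor for bone morphogenetic proteins (BMP), was at 69.4 CPM against 30.3 in E10.5 Endo, and *Cblb*, a ubiquitin ligase that tags receptors, at 57.0 against 26.7 in E8.25 HPC. *Tlr4*, the receptor for bacterial lipopolysaccharide, was at 92.2 against 44.9 in E10.5 Mac, but its median in E8.5 Endo was only 2.95, with 54 cells detected.

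Other members belong to the cytoskeleton and to cell adhesion. *Tubb6*, a beta-tubulin, ranged from 556 to 3610 CPM with a median of 1562, and its mean of 1695 was 2.54-fold that of E8.25 HPC (666.6). *Ctnna1*, alpha-catenin, which links cadherins to actin, had a mean of 1181 against 560.6 in E10.5 Endo, and *Cald1*, the actin-binding protein caldesmon, 813.4 against 397.7. All 3 were detected in each of the 79 cells. So were *Cgnl1*, a protein of cell junctions (369.4 against 161.5 in E10.5 Endo), and *Flrt2*, a leucine-rich repeat transmembrane protein that binds an Unc5 receptor. *Flrt2* was at 347 CPM against 123.6 in E10.5 Endo and 6.82 in E8.5 HPC. *Crmp1*, a collapsin response mediator protein that acts in semaphorin signalling of neurons, was at 85.8 CPM against 27.0 in E10.5 Endo, with a median of 30.6 and 63 cells detected.

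Matrix and secretory genes formed another part of the 35. The fibrillins *Fbn1* and *Fbn2*, which build extracellular microfibrils, were at 95.9 and 167.7 CPM against 37.4 in E10.5 Endo and 68.4 in E7.25 mesoderm. *Fbn2* was found in all 79 cells with a median of 117.2, whereas *Fbn1* was found in 61 with a median of 5.92. *Col23a1*, a membrane-bound collagen, was at 53.0 CPM against 18.0 in E8.5 HPC, and *Adam9*, a membrane metalloprotease, at 121.6 against 50.2 in E10.5 Endo. *Pdia6*, a disulphide isomerase of the endoplasmic reticulum, was at 2318 against 1149 and lay just inside the threshold with a difference of 1.01, beside *Tlr4* (1.02) and *Cald1* (1.03). Just outside lay *Abhd13* (0.996), the microtubule-associated *Map1b* (0.99) and *Tbc1d9b* (0.97).

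Some of these means rested on few cells. The highest cell held 52.5% of the summed CPM of *P3h1*, a collagen prolyl hydroxylase, whose median was 4.46 CPM against a highest value of 2790. It held 31.2% of the sum of *Tox2*, a DNA-binding HMG-box protein with a median of 1.79 CPM. When each gene was taken without its highest cell, 26 of the 35 remained, and *P3h1*, *Tox2*, *Tlr4*, *Col23a1*, *Cblb*, *Gm37736*, *Nrg1* and *Pdia6* were among the 9 that did not. All 35 remained without the cell with mesenchymal genes, without the deepest cell and without both. Without the 15 cells with 50 counts of both sexes 31 of the 35 remained, with *Sema3a*, *Nrg1*, *Pdia6* and *Rnf185* lost, and without the 59 cells with 5 counts 25 remained, with both fibrillins among the 10 lost.

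**Figure D2:**
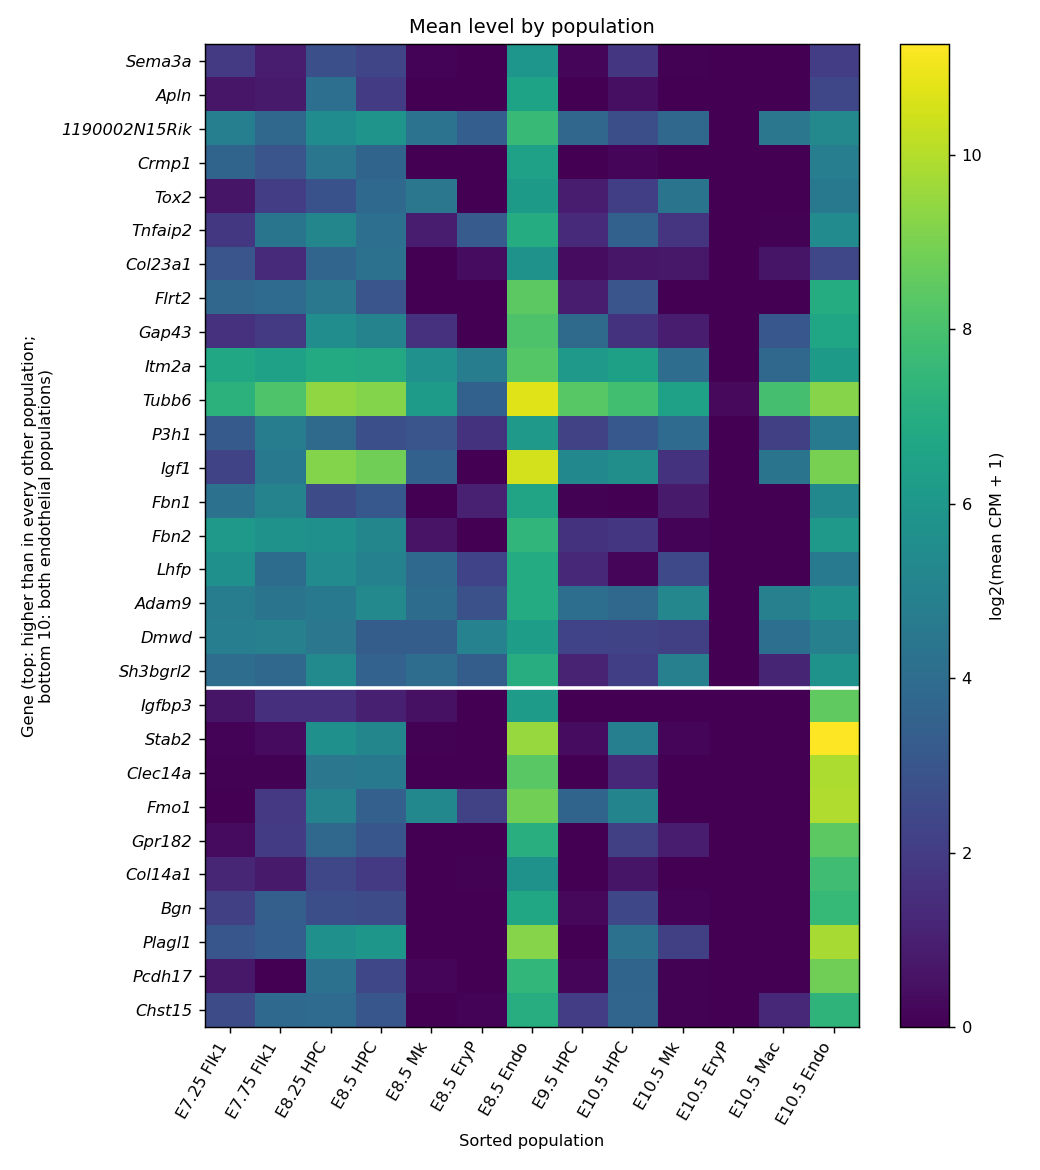
Colour gives log2(mean CPM + 1) of a gene (rows) in each of the 13 sorted populations (columns). The rows above the white line are leading genes of E8.5 Endo, of which *Sema3a* was at 60.2 CPM against 5.78 in the next population, and the 10 rows below it are genes of both endothelial populations, such as *Stab2* at 736.1 and 2469 CPM.

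A wider group separated both endothelial populations from the blood and mesoderm populations. Of 3351 genes at 50 CPM and in 50% of cells in both, 60 (1.79%) were at least 2 on the log2 scale above the highest of the other 11 populations in the lower of both. The highest of these 11 was E8.25 HPC for 43 of the 60 genes and E8.5 HPC for 7. In 26 of the 60 the gene was detected in every E8.5 Endo cell. Only 9 of the 60 were higher in E8.5 Endo than in E10.5 Endo, none of them by 2 or more, and 7 were lower by 2 or more. All 60 remained without the cell with mesenchymal genes and without the deepest cell, and 49 without the 59 cells with 5 counts of both sexes.

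*Igfbp3*, which binds insulin-like growth factors, had the widest separation on this scale at 4.62, yet was at 71.3 CPM in E8.5 Endo with a median of 6.53, and at 364.3 in E10.5 Endo. With the mean of log2(CPM + 1) its separation was 2.98, and that of *Stab2* led at 6.58. *Stab2*, a scavenger receptor for hyaluronan, was at 736.1 CPM with all 79 cells between 20.1 and 2589, and at 2469 in E10.5 Endo and 34.7 in E8.5 HPC. *Clec14a*, an endothelial C-type lectin, was at 330.9 CPM in E8.5 Endo and 943.8 in E10.5 Endo, and *Gpr182*, a receptor of endothelial cells, at 136.5 and 346.9. The matrix proteoglycan *Bgn* was at 105.2 and 184.8. *Fmo1*, a flavin-containing monooxygenase, was at 462 and 964.1 and was detected in 76 of the E8.5 Endo cells. The members nearest to equal were *Bcl6b*, a transcriptional repressor, at 120.5 and 119.1, and *Hecw2*, a ubiquitin ligase, at 171.8 and 161.2. *Flrt2*, described above, was also a member and had the widest excess in E8.5 Endo (1.48), followed by *Cd109*, a GPI-anchored surface protein, at 283.8 against 144.03 CPM and a difference of 0.97.

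The genes of known pathways were described by 19 lists, over which 290 of 303 genes were in the table. As background, the mean was highest in E8.5 Endo for 1125 of the 15677 genes in no list (7.18%), or for 11.8% of the genes at the level minimum. Over all genes the median difference to the mean of the other 12 populations was 0.06. Of the 290 list genes 32 had their highest mean in E8.5 Endo, 31 without both single cells that stood apart, and 31 without the 59 cells with 5 counts of both sexes. Of 30 endothelial receptors and junction genes, 28 reached the level minimum and the median difference was 4.53, but the mean was highest in E8.5 Endo for 2 only and lower than in E10.5 Endo for 28. With the mean of log2(CPM + 1), 22 of the 30 were below E10.5 Endo. The 2 exceptions were *S1pr1*, the receptor for sphingosine-1-phosphate (264.6 CPM against 205.8 in E10.5 Endo), and *Thsd1* (198 against 177.6). *Pecam1*, encoding the junction protein CD31, was at 272.8 against 385.7, and *Plvap*, of fenestral diaphragms, at 89.5 against 608.7. The vascular growth factor receptors *Flt1* and *Flt4* were at 484.3 and 150.2 CPM against 1172 and 314.4. The angiopoietin receptor *Tek* was at 716.9 against 887.2, whereas the related *Tie1* was at 47.0 against 327.6.

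Among 29 endothelial transcription factors the mean was highest in E8.5 Endo for 6, and for 4 without the 59 cells. *Ets1* was at 1605 CPM against 987.1 in E10.5 Endo and 279 in E8.5 HPC, and *Fli1* at 765.3 against 733.7 in E10.5 Mk, so that these ETS factors differed in how far they set the population apart. *Hhex*, a homeobox factor, was at 203.5 against 185.7, and the forkhead genes *Foxc2* and *Foxc1* were highest at only 5.47 and 1.69 CPM. *Foxc2* was detected in 17 cells. *Etv2*, the ETS factor that starts the endothelial programme in mesoderm, was at 2.21 CPM in 14 cells and at 29.6 in E7.25 mesoderm. *Tal1* and *Lmo2*, partners in the haemato-endothelial complex, were at 43.2 and 26.2 CPM against 79.6 and 85.6 in E8.5 HPC. Of the 29 factors 17 were below E10.5 Endo, but 11 with the mean of log2(CPM + 1), where the median difference turned from -0.42 to 0.12. The SoxF genes *Sox7*, *Sox17* and *Sox18* were each higher in E10.5 Endo, at 124.2 against 38.8, 34.2 against 12.3 and 87.5 against 38.2.

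The list of growth cone and cytoskeleton genes had the largest share with a highest mean in E8.5 Endo, 10 of 17 (58.8%). It was chosen with earlier results of these cells known and holds 3 of the proposed markers, so the share is a description. The count was also 10 without the 59 cells. Besides *Gap43*, *Klhl4*, *Vim*, *Crmp1* and *Tubb6* it held *Marcks*, an actin-binding substrate of protein kinase C, at 5711 CPM (lowest cell 1056) against 3154 in E10.5 Endo. *Dpysl2* and *Dpysl3*, relatives of *Crmp1*, were at 2555 and 254.2 against 1944 and 189.1, and the intermediate filament gene *Nes* at 89.8 against 51.8. *Marcksl1* was at 271.5 against 203.8. The list was not uniform. *Basp1*, like *Gap43* a protein of growth cones, was at 7.33 CPM against 114.5 in E10.5 Mac, *Stmn2* at 2.28 against 41.5 in E10.5 Endo, and neuronal *Tubb3* at 0.0833. In no gene of the list was E8.5 Endo 2 or more above E10.5 Endo, where the median difference was 0.41 (1.13 with the mean of log2 values).

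Of the 19 genes in the list of guidance receptors and ligands none was highest in E8.5 Endo, and 2 were without the 59 cells. The list did not hold *Sema3a*, which was highest in E8.5 Endo as described above, or *Nrp1*. *Nrp1*, the co-receptor for semaphorin 3A and vascular endothelial growth factor, was at 268 CPM against 1063 in E10.5 Endo, and *Plxnd1*, an endothelial plexin, at 207.1 against 367.9. *Efna1*, an ephrin, was at 216.4 against 512.6. *Efna5* had the opposite order between the endothelial populations, at 168.6 against 62.6, with E7.25 mesoderm at 233.4. The 17 basement membrane and matrix genes were above E8.5 HPC by 2 or more in 8 of the 11 tested, but only *Fbn1* was highest in E8.5 Endo, and none without the 59 cells. *Col4a1* and *Col4a2*, the collagen IV chains, were at 548.6 and 291.4 CPM against 2192 and 1088 in E10.5 Endo and 48.8 and 45.6 in E8.5 HPC. *Fn1*, fibronectin, was at 968.6 against 1645. The median of the matrix list against E10.5 Endo was -0.76, but 0.02 with the mean of log2(CPM + 1), where 8 of the 17 in place of 14 were below E10.5 Endo.

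Scavenger receptors take up modified proteins, hyaluronan and other ligands. Among the 11 genes of this list, 9 reached the level minimum, and 7 of these were 2 or more above E8.5 HPC. *Lyve1*, a hyaluronan receptor, ranged from 113.2 to 6269 CPM over the 79 cells with a mean of 2754, against 4036 in E10.5 Endo and 525.2 in E8.5 HPC. *Mrc1*, the mannose receptor, was at 1559 against 2035 in E10.5 Endo and 3493 in E10.5 Mac, so the macrophages held the highest level. *Stab1* was at 313.6 against 829.1. The median against E10.5 Endo was -0.55, and 0.04 with the mean of log2 values. *Colec12*, a scavenger collectin, was the 1 member with its highest mean in E8.5 Endo, at 377.7 against 262.

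Against E10.5 Endo the median of the BMP and Id list was -0.37, and 0.29 with the mean of log2 values. In the BMP pathway 3 of 18 genes were highest in E8.5 Endo, and 1 without the 59 cells. *Bmp6*, a ligand, was at 19.6 CPM in 38 cells, against 5.90 in E7.25 mesoderm, 1.22 in E8.5 HPC and 0 in all E10.5 Endo cells. The target *Id1* (38.3 CPM) and the signal transducer *Smad1* (75.5 CPM) exceeded the next population by 0.03 and 0.12 only. *Tmem100*, an endothelial gene downstream of the receptor Acvrl1, was at 5.53 CPM in 9 cells against 112.1 in E10.5 Endo, and *Acvrl1* itself at 47.8 against 155.6. No count of *Bmper*, a BMP-binding protein, was found.

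**Figure D3:**
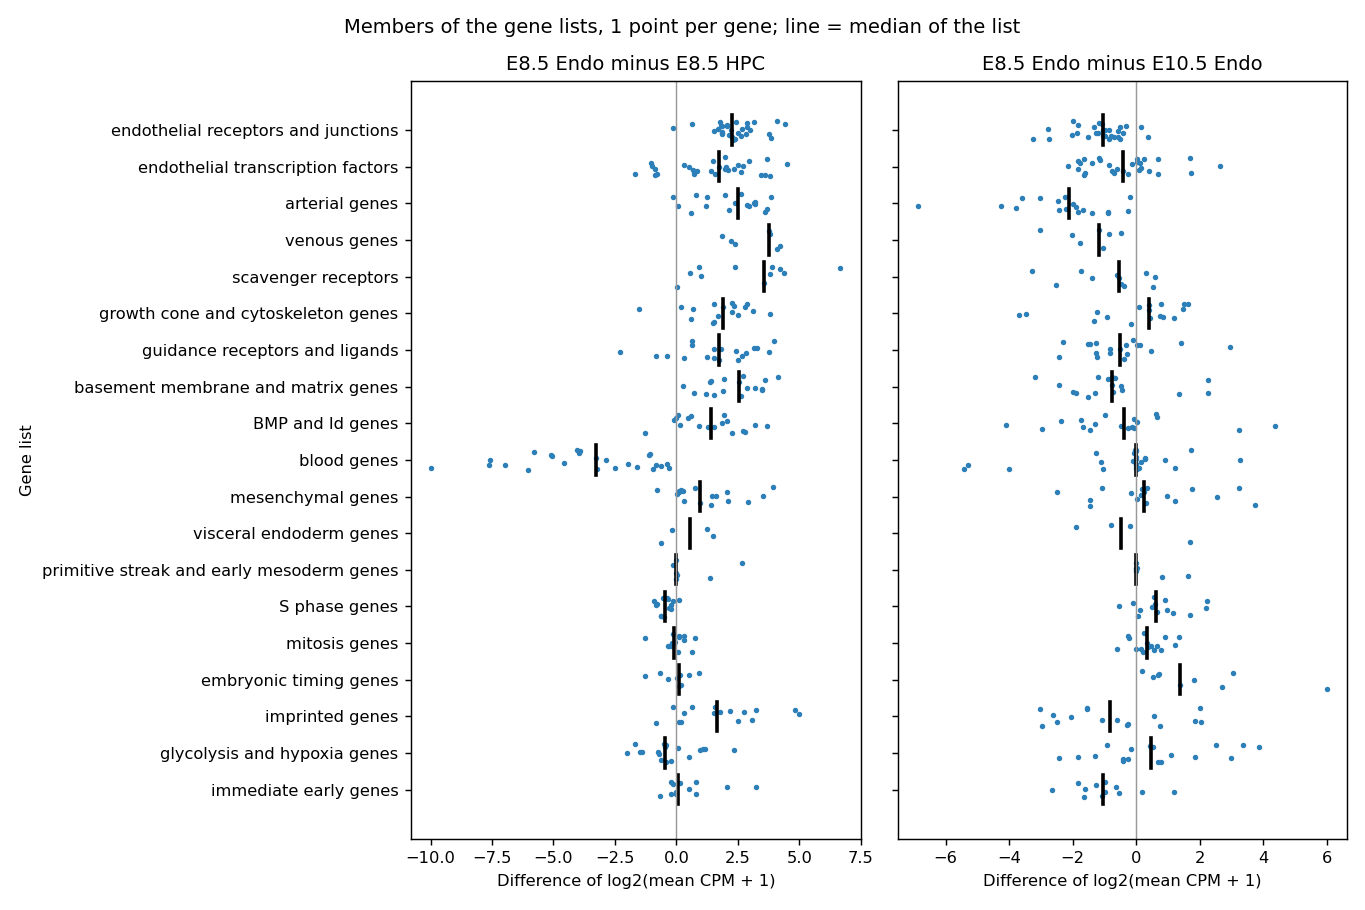
Each point is a gene of a list, with a line at the median of the list. It is placed by the difference of log2(mean CPM + 1) between E8.5 Endo and E8.5 HPC (left) or E10.5 Endo (right). The medians against E8.5 HPC and E10.5 Endo were 2.28 and -1.04 for endothelial receptors and junctions, and -3.27 and 0 for blood genes. Over all genes they were -0.04 and 0.

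Blood genes were low in E8.5 Endo, from which CD41+ and TER119+ cells had been gated out. None of 25 was highest in E8.5 Endo, and 9 of the 25 were at 0. Those without a count included *Gata1*, *Klf1*, *Ptprc*, *Gp1bb*, *Gp9*, *Cx3cr1*, *C1qb* and *C1qc*, and 0 of 79 cells allows a share of up to 3.80% of cells with a count, taking 3 cells as the limit. The summed level of the list per cell ranged from 1.87 to 767.8 CPM with a median of 103.9, against 135.2 to 37405 with a median of 1474 in E8.5 HPC. The exceptions were *Itga2b* and *Kit*. *Itga2b*, the gene of the gated CD41, was still detected in 72 of the 79 cells at a mean of 69.8 CPM, with 57 cells at 10 counts or more, against 92.4 CPM in E8.5 HPC. *Kit*, the stem cell factor receptor, was found in 71 cells at 55.6 CPM against 107.5. *Itga2b* was also found in 56.1% of the E8.5 EryP cells and 45.9% of the E10.5 Endo cells, which were CD41- sorts too.

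*Runx1* was detected in 15 of the 79 cells and at 10 counts or more in 10 of them, at a mean of 8.64 CPM over all cells against 228.8 in E8.5 HPC and 0 in E10.5 Endo. In the 10 cells its mean was 66.7 CPM. *Kit* and *Itga2b* were each found in 9 of the 10 and the embryonic globin *Hbb-bh1* in 4. Of other genes of the haematopoietic programme, *Adgrg1* was found in 3 and *Gfi1* in 1, and *Gfi1b*, *Myb*, *Gata1*, *Spi1* and *Ptprc* in none. *Cdh5* averaged 446.2 CPM in these 10 cells and 539.9 in the other cells. *Sox17* was found in 7 of the 10. These cells were set apart by *Runx1* alone, so the values are a description of 10 cells.

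Of the cell types that a CDH5+ gate should leave out, mesenchymal genes did not reach the level minimum for any of 17 genes. Their summed level per cell ranged from 0 to 2068 CPM with a median of 73.8 in E8.5 Endo. The range was 0 to 398.2 with a median of 1.32 in E8.5 HPC, and 0 to 6441 with a median of 0 in E10.5 Endo, so of these 3 populations the median cell held most in E8.5 Endo. *Pdgfrb*, *Hand2* and *Wt1* were each found in 1 cell. *Col1a2* was the most widespread, in 52 cells at a mean of 39.3 CPM, against 40.6 in E7.75 mesoderm. *Epcam*, a marker of the visceral endoderm, and *Mesp1*, *T*, *Eomes* and *Evx1*, genes of the primitive streak, were at 0 in all 79 cells. The other members of these lists were not. Of 4 visceral endoderm genes 1 was at 0 and 1 had its highest mean in E8.5 Endo, and of 7 streak and early mesoderm genes 4 were at 0. The summed level per cell reached 134.8 CPM for the visceral endoderm genes and 147.3 for the others, with a median of 0 for both.

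At the same stage, the CD41+ population of the same CDH5+ gate gave the comparison closest in design, since E8.5 HPC shared stage, strain and flow cell. Of 4816 genes tested, 326 (6.77%) were 2 or more higher in E8.5 Endo and 82 (1.7%) were 2 or more lower. The higher share of calls was 79.9%, but 60.6% when the mean of log2(CPM + 1) was compared in place of the log2 of the mean, 67.0% with no filter on low values, and 71.6% without the 59 cells with 5 counts of both sexes, where 2.68% of genes were lower. Without both single cells it was 79.6%. *Cd36*, a fatty acid and thrombospondin receptor, was at 101.3 CPM in E8.5 Endo, in 61 cells, and had no count in E8.5 HPC. This made it at least 4415-fold higher against a floor of 3 counts over the population. *Ccdc80*, a matrix protein, was at 83.8 against 0.128 CPM, *Pcdh17*, a protocadherin, at 172.7 against 4.25, and *Itga3*, the integrin alpha 3 chain, at 66.4 against 0.788. *Adamts5*, an aggrecanase, was at 71.2 against 1.21 with a median of only 5.78. The non-coding *Rian* was at 464.5 against 10.9.

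The 10 genes furthest below E8.5 HPC included globins, haematopoietic transcription factors and platelet genes. *Hbb-bh1* was at 2.20 CPM in 8 cells against 3191, and *Hba-x*, another embryonic globin, at 0.794 against 340.6. *Gata1*, the erythroid and megakaryocytic transcription factor, had no count against 198.5 CPM, at least 8967-fold lower, and *Nfe2*, another factor of these lineages, none against 98.7 CPM, at least 4461-fold lower. *Sla*, an adaptor protein of blood cells, and *F10*, coagulation factor X, were also without a count and stood at 150.5 and 77.3 CPM in E8.5 HPC. *Plek*, pleckstrin of platelets, was at 13.1 CPM against 1237, and *Itgb3*, the beta chain that pairs with CD41, at 1.48 against 190.8. Over the blood list 7 of the 9 genes tested were 2 or more lower. *Cd34*, shared by endothelium and progenitors, was at 354.3 CPM against 393.7 in E8.5 HPC.

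The later endothelium differed in stage, flow cell and gate at once, since CD45+ cells were removed only at E10.5. Of 4896 genes tested, 2.35% were 2 or more higher in E8.5 Endo and 5.13% (251 genes) 2 or more lower. The balance depended on the scale. Higher genes made up 31.4% of the calls, but 92.8% with the mean of log2(CPM + 1), where the median over all tested genes moved from 0.06 to 1.30, 38.4% with CPM of the total count, and 39.8% with no filter. Without the 59 cells they made up 29.2%, with 2.67% of genes higher and 6.49% lower, and without both single cells 30.9%. Orders between the endothelial populations are therefore given with the scale wherever a list turned with it.

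*Apln* was again among the genes higher in E8.5 Endo, at 91.9 CPM in 88.6% of cells against 4.22 in 13.1%. *Gpc3*, a glypican, was at 82.2 against 3.07, and *Arhgap6*, a GTPase-activating protein, at 59.9 against 1.49 with a median of 1.20 in E8.5 Endo. Genes of embryonic timing were higher in 3 of 9, by 2 or more. *Lin28b*, which blocks the microRNA let-7, was at 103.8 against 11.7, and *Hmga1* and its relative *Hmga2*, chromatin proteins, at 140.5 against 20.9 and 501.6 against 142.1, the latter difference being 1.81. Genes of glucose use were higher in 4 of 11. Among them *Slc2a3*, a glucose transporter, was at 140.8 CPM against 12.8, the hexokinase *Hk2* at 183.1 against 22.3, and the phosphofructokinase *Pfkp* at 108.97 against 6.56.

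In the other direction, *Gja5*, the gap junction protein connexin 40 of arteries, was at 1.76 CPM in 5 cells against 321.9, and *Sdpr*, a caveolar protein, at 7.82 against 815.3. *H19* and *Igf2*, neighbouring imprinted genes, were at 540.8 and 381.9 CPM against 4469 and 2991, and 4 of 11 imprinted genes tested were 2 or more lower. *Peg3*, also imprinted, had the reverse order, at 1903 CPM (lowest cell 209.8) against 468.6, while *Mest* was at 2850 against 1694. *Cd36* was at 101.3 against 986.5.

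Arterial genes were mostly low, and several pairs of an arterial and a venous gene were detected in the same cells. Of 18 arterial genes 2 reached the level minimum, none was highest in E8.5 Endo, and 7 of 11 tested were 2 or more below E10.5 Endo. Against E8.5 HPC the median of the 18 was 2.51, and 2 of 2 tested were 2 or more higher. All 18 were below E10.5 Endo, and 16 with the mean of log2 values. *Efnb2* was at 110.3 CPM in 62 cells against 519.1 in E10.5 Endo, and *Dll4*, a Notch ligand, at 42.4 in 56 cells against 160.4. *Gja4* (connexin 37) was found in 11 cells, *Hey1*, a Notch target, in 17, and *Cxcr4*, a chemokine receptor, in 1. On the venous side 5 of 7 genes reached the level minimum, and none was highest in E8.5 Endo. These 5 were also members of the lists of endothelial receptors or scavenger receptors, whereas *Nr2f2* and *Ephb4* were below the minimum. Of 5 tested 4 were 2 or more above E8.5 HPC, and 2 of 7 tested were 2 or more below E10.5 Endo. *Nr2f2* was found in 61 cells at 32.1 CPM, against 112.5 in E10.5 Endo, and *Ephb4* in 52 at 31.3 against 265.1. *Aplnr* was in all 79 cells at 255.1 against 572.2. In E8.5 EryP, which should lack these genes, *Efnb2* was found in 12.1% of cells, *Ephb4* in 3.03%, and *Dll4* and *Nr2f2* in none.

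*Efnb2* and *Ephb4* were detected together in 41 of the 79 cells (51.9%, exact 95% interval 40.4 to 63.3), and in 25 at 10 counts or more of each. *Dll4* and *Nr2f2* were likewise together in 41 cells, and in 24 at 10 counts. Of the 79 cells 59 held 5 counts or more of both sexes, and their part in joint detection was not tested beyond leaving them out. In the 20 cells left, *Efnb2* and *Ephb4* were together in 9 (45%, exact 95% interval 23.1 to 68.5) and *Dll4* and *Nr2f2* in 8 (40%, 19.1 to 63.9), and at 10 counts in 5 and 4. Pearson's correlation of log2(CPM + 1) over the 79 cells was -0.02 for *Efnb2* with *Ephb4* and -0.14 for *Dll4* with *Nr2f2*. Each cell had counts for 3 to 14 arterial genes, with a median of 8, and for 5 to 7 of the 7 venous genes. Most of the venous genes were also in other lists, as given above. The receptor *Aplnr* was in all 79 cells, so its joint count with *Apln*, 70 cells, was that of *Apln* alone. Their correlation was 0.29. *Apln* and *Sema3a* were together in 47 cells, at a correlation of 0.13. In the 20 cells these pairs were together in 20 and 12, and *Apln* was in all 20. Joint counts depend on how widely each gene was detected, and they were not set against those that separate detection would give. These correlations share depth and library and come without a test.

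Spread among the 79 cells was measured as the standard deviation (SD) of log2(CPM + 1) in excess of that of genes at like level, taken over 200 neighbouring genes. Of 4220 genes at the level minimum 353 had an excess of 0.5 or more. Without the 59 cells with 5 counts of both sexes 578 did, over the 20 cells left. No other set of 20 cells was drawn, so the number of cells and their kind cannot be told apart here. *Plagl1*, an imprinted zinc finger gene, led with an excess of 1.66. Its values ran from 0 to 4036 CPM with a median of 195.1, and it was one of the genes of both endothelial populations. *Enc1*, an actin-associated kelch protein, followed at 1.55 (0 to 2557 CPM, median 547.6), and *Sox11*, a transcription factor of progenitors, at 1.43 (0 to 3024 CPM, median 290.5). *Fmo1* and *Flrt3*, both of the shared endothelial genes, had an excess of 1.29 and 1.19, and *Kitl*, the ligand of Kit, 1.14 with a highest value of 1435 CPM. Of the 15 leading genes by excess, 7 were among the leading 15 when the 59 cells were left out, and 14 without both single cells described above.

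**Figure D4:**
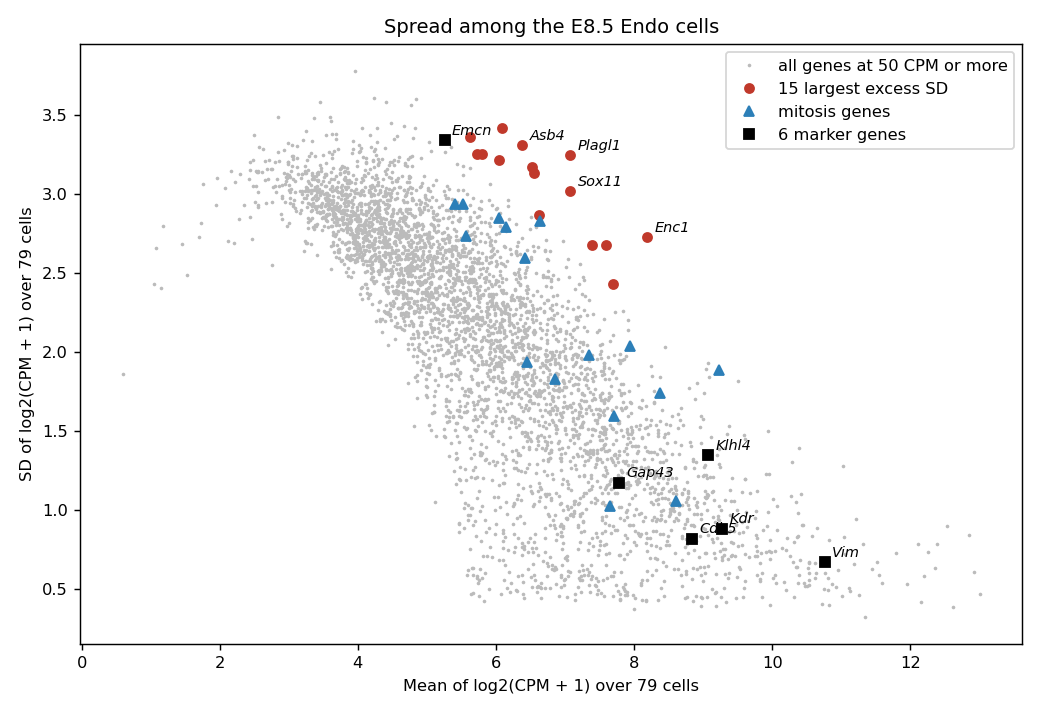
Each point is a gene, with the mean of log2(CPM + 1) over the 79 E8.5 Endo cells on the horizontal axis and the SD on the vertical axis. *Plagl1* stood furthest above genes of like mean, with an SD of 3.24, whereas *Tubb6* varied little with an SD of 0.57. Of the 6 marker genes, 3 had an SD above that of genes of like mean and the others did not.

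The leading genes of the population did not share 1 degree of spread. The 35 had a median excess of 0.22, from -0.21 to 0.98, with 5 at 0.5 or more, and the 60 genes of both endothelial populations a median of 0.11, from -0.78 to 1.66, with 14 at 0.5 or more. The growth cone list had a median excess of -0.12, with an SD of 0.67 for *Vim*, 0.57 for *Tubb6* and 0.64 for *Marcks*, and none of its 12 members at the level minimum at 0.5. Medians were 0.30 for scavenger receptors and 0.19 for matrix genes. Mitosis genes had the highest median of the lists, with 10 of 16 at an excess of 0.5 or more and a median of 0.62. *Bub1*, a spindle checkpoint kinase, led them at 1.04, then *Top2a*, a topoisomerase, at 0.99 and *Cenpe*, a kinetochore motor, at 0.80. The median of their pairwise correlations over cells was 0.26, against 0.04 for the first 20 leading genes of the population. Against the mean of the other 12 populations the median difference in level was 0.03 for mitosis genes and -0.15 for S phase genes. Against E8.5 HPC it was -0.09 and -0.45, and against E10.5 Endo 0.36 and 0.63. With the mean of log2(CPM + 1) it was 2.59 and 3.04 against E10.5 Endo, where the median over all tested genes was 1.30. No member of either list was below E10.5 Endo on that scale. In the S phase list *Mcm2*, of the replicative helicase, was lowest of all 13 populations at 180.6 CPM.

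The axes of variation were shallow. The first principal component over 500 genes held 8.86% of the variance and followed the number of genes detected per cell with a Pearson correlation of 0.75. It was led by the long non-coding *Tug1* and the secretory genes *Golt1b* and *Sec61a1*. The second held 3.71%, with *Malat1*, *Fstl1* and *Dab2* on its positive side and *Anxa5*, *Cs* and *Asns* on the other, and correlated with the log10 total count at -0.51. The deepest cell, with keratin genes, lay at its negative end with a score of -23.8, where the next cell was at -8.34 and the highest at 11.7, and the correlation was -0.47 without it. The third held 2.94%, was led by *Cenpf*, *Ccnb1*, *Aurka* and *Top2a*, and correlated with the mean level of mitosis genes at 0.71. These leading genes are members of the mitosis list, so that correlation is partly built in. The first component correlated with the mean level of mitosis genes at 0.47.

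The 2 cells that stood apart differed from the others in named genes, picked after their values were seen. In the cell with mesenchymal genes, *Acta2*, smooth muscle actin, was at 782.8 CPM against a mean of 11.3 in the other 78 cells, *Col1a2* at 568.4 against 32.5, and *Upk3b*, a mesothelial gene, at 75.5 against 0.00665. *Cdh5* was at 79.5 CPM there and higher in 77 of the 78 others, and *Emcn* was at 0. The deepest cell, with 2730963 counts, held the keratin *Krt18* at 6430 CPM, 81.4% of the sum over the population, *Krt7* at 1651 against 0.0881 in the others, the prolactin family gene *Prl2c3* at 3740 against 0.478, *Cyp11a1*, which starts steroid synthesis, at 2078 against 0.0341, and *Hand1*, a transcription factor, at 700.05 against 3.55. *Prl2c3* has near-identical copies, between which reads may be split. This cell had the lowest *Cdh5* (60.1 CPM), *Kdr* (82.3 CPM), *Klhl4* (37.0 CPM) and *Vim* (125.5 CPM) of the population, while *Tek* was at 144.02 and *Tubb6* at 1347. None of the 35 leading genes was lost without either cell, as given above.

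**Figure D5:**
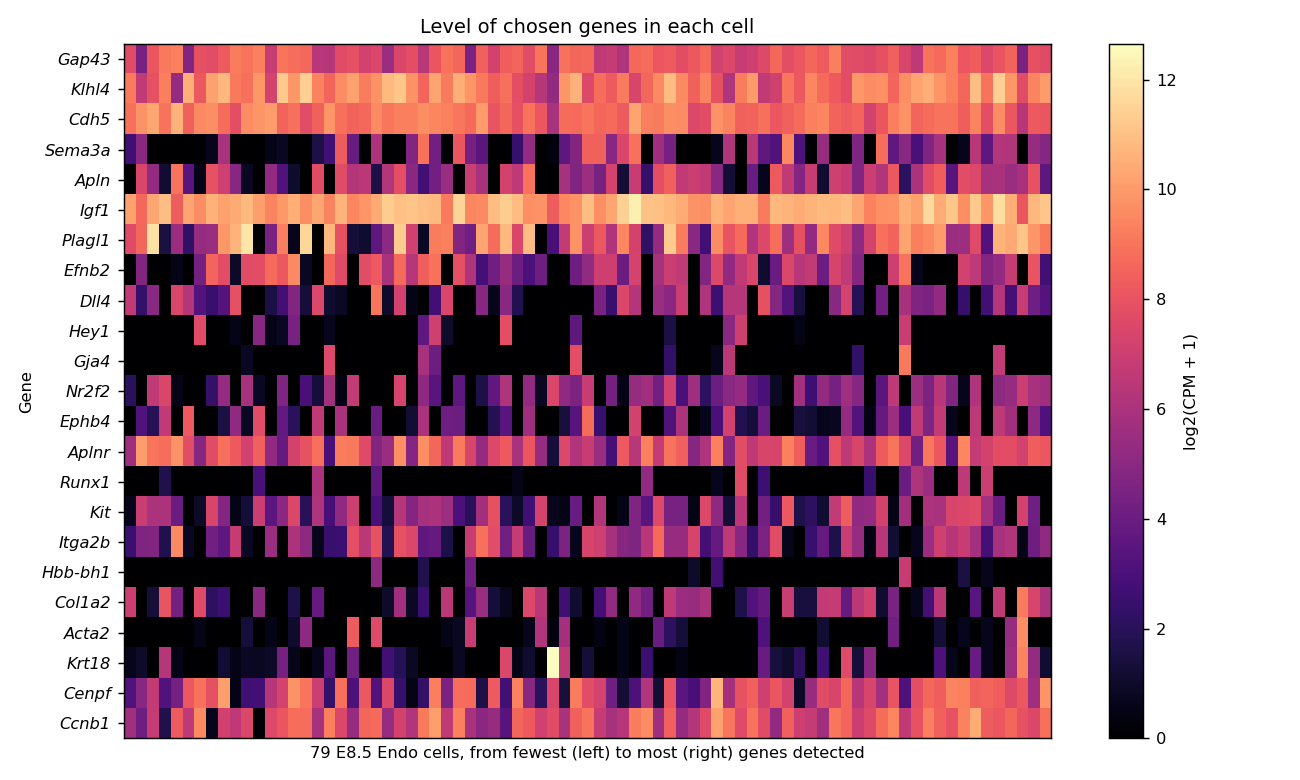
Colour gives log2(CPM + 1) of chosen genes (rows) in each of the 79 E8.5 Endo cells (columns), ordered from the fewest to the most genes detected. *Cdh5*, *Gap43*, *Klhl4* and *Igf1* filled all columns, *Sema3a* 51 of them, *Efnb2* 62 and *Ephb4* 52, and *Runx1* 15.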

How the data were processed

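Yolk sac cells were sorted by flow cytometry, captured on the Fluidigm C1 device, prepared with Nextera XT and sequenced as paired ends of 100 bases. The authors counted reads per gene with featureCounts of Rsubread against Ensembl mouse release 84 (GRCm38), removed cells and genes of low quality with scater, and deposited raw counts for 1073 captured and 926 kept cells. The authors also deposited a signal per gene and cell, which they computed with calculateCPM after scran size factors (called CPM here) and whose sum per cell is not a fixed total. Here the mean CPM over the cells of a population was compared as log2(mean CPM + 1), with counts used for detection (1 count or more), thinning and depth. No test between populations was made, as each is 1 sample. A gene entered at 50 CPM and detection in 50% of cells, in the population called higher or, for pairs, in either. The rules for named genes took the first 20 genes higher than every other population, the first 10 of both endothelial populations, the 10 nearest to being lowest, 10 in each direction against E8.5 HPC, 5 in each direction against E10.5 Endo, the 15 with the largest excess SD, and the members of the lists; any other named member of the called sets was chosen after its values were seen. Some genes that these rules or the lists took are not reported here. The members, markers and gene lists were chosen with earlier results of these data known. Shares carry exact (Clopper-Pearson) 95% intervals, a population at 0 was given a floor of 3 counts, and a share of 0 an upper limit of 3 cells. Coordinates come from GENCODE M21 (GRCm38), in which 15381 symbols matched 1 Ensembl identifier. Alternatives were total-count CPM, a pseudocount of 10, no level filter, the mean of log2 values, thinning to 480000 counts, 1 flow cell only, other minimum counts, and leaving out cells or the E10.5 EryP population. Functions were tested on simulated data. Scripts ran in Python 3.11.15 with pandas 2.3.3, numpy 2.4.6 and scipy 1.17.1, and figures were drawn with matplotlib 3.10.9.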

Additional observations from a re-analysis of the deposited data

Results flagged for a closer look

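Outside the filtered gene table, 10 genes that the authors' filter left out had 1 count or more in at least 50% of the 79 E8.5 Endo cells, a signal in data that the comparisons above do not use. They are listed by Ensembl identifier, and none of the 10 had 10 counts or more in 50% of the cells. Their mean levels lay between 0.39 and 0.824 CPM of the total count. The highest was ENSMUSG00000102915, found in 47 E8.5 Endo cells and in 52.1% of the other kept cells. Together the left-out genes took 0.158% of the counts of E8.5 Endo. The matching of 15965 of 15967 genes between the filtered and unfiltered tables was made by their values.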

How the results depend on the processing

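Leaving out the cells that stood apart, the cells with counts of both sexes, or each gene's highest cell was chosen after seeing the data, unlike the other alternatives. Counts are given as a percent of the genes or cells tested. With no filter on low values and 15967 genes, 0.983% were higher and 0.0877% lower than in every other population and 0.689% were of both endothelial populations. Against E8.5 HPC 5.97% were then higher, 2.94% lower and 8.91% either, and against E10.5 Endo 4.5%, 6.81% and 11.3%. With the mean of log2(CPM + 1), 4.9% were higher than in every other population and 3.97% of both endothelial populations, 6.27% were lower than in E8.5 HPC and 15.9% either, and 27.5% were higher than in E10.5 Endo, 2.14% lower and 29.7% either. A pseudocount of 10 CPM gave 1.23% higher than in E10.5 Endo and 4.72% either. Within the flow cell of E8.5 Endo alone, with fewer populations to exceed, 11.5% were higher and 2.36% lower than in every other population, and 44.5% of the 290 list genes were highest, against 32 genes over all populations. Without E10.5 EryP 1 gene (0.0531%) was lower than in every other population. Without the 59 cells with 5 counts of both sexes, 2.68% were lower than in E8.5 HPC. In the 20 cells left, 14.1% (578 genes) had an excess SD of 0.5 or more. At 10 counts in place of 1, *Efnb2* and *Ephb4* were together in 31.6% of cells and 0 left-out genes were in 50% of cells.

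Directions turned in 5 of the cases counted here, and the cause was not tested. The difference to the highest other population became -0.92 for *Abhd13* with the mean of log2(CPM + 1), and -0.44 for *Abhd13* and -0.30 for *Fbn1* without the 59 cells. Within 1 flow cell the median difference to the other populations became -0.087 for mitosis genes and -0.46 for glycolysis genes. In the other 89 main counts the value stayed within 1.5 times or inside its counting interval. Among single differences and list medians 39 others moved by over 1.5 times and kept their sign. With the mean of log2(CPM + 1) 14 differences to the highest other population did, 12 of them widening (*Gap43* from 1.47 to 3.31), and 7 of both endothelial populations, 6 widening. A pseudocount of 10 narrowed 5, 1 flow cell widened 7 (*Flrt2* from 1.48 to 3.94, *Gap43* to 2.60) and moved 3 list medians, and leaving out the 59 cells narrowed 3. Of the 35 leading genes 31 remained with total-count CPM, 28 with a pseudocount of 10 and 35 after thinning. No paired analysis was possible because the replicate numbers only number cells and no test was made. A gene at 0 in 79 cells may still be found in up to 3.80% of such cells (3 of 79), and with 1 lane for E8.5 Endo library and population cannot be told apart.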

Other observations

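Some neighbouring non-coding genes of an imprinted region on chromosome 12 (GRCm38, plus strand), picked after their values were seen, were high in E8.5 Endo against E8.5 HPC. *Meg3* (109541001 to 109571726) was at 157.9 CPM against 4.02, *Rian* (109603940 to 109661716) at 464.5 against 10.9, *Gm37899* (109668869 to 109677585) at 275.9 against 4.45, and *B830012L14Rik* (109695586 to 109702587) at 353.1 against 13.0. Mesoderm at E7.75 had 332.4 CPM of *Gm37899*, 547.3 of *Rian* and 292.6 of *B830012L14Rik*, so only the last was highest in E8.5 Endo among these. Against E10.5 Endo, *Meg3* was lower in E8.5 Endo (463.9 CPM in E10.5 Endo) whereas the other members were higher, with *B830012L14Rik* at 50.1 CPM in E10.5 Endo. Within E8.5 Endo the genes varied widely, with *B830012L14Rik* between 0 and 3951 CPM around a median of 31.1. Over the 79 cells Pearson's correlation of log2(CPM + 1) was 0.50 between *Rian* and *Gm37899*, 0.39 between *Gm37899* and *B830012L14Rik*, and 0.34 between *Meg3* and *Rian*. *Peg3*, an imprinted gene on chromosome 7, correlated with *Meg3* at 0.29. These points share library and depth, and the genes are neighbours on 1 strand, between which reads may be split.

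Immediate early genes, which answer to cell handling among other stimuli, were highest in E8.5 Endo for 1 of 12. *Atf3* was at 34.0 CPM in 52 cells against 18.5 in E10.5 Mk, while *Fos* was at 52.3 CPM against 81.9 in E10.5 Endo and *Egr1* at 51.5 against 159.2. Transcripts of the mitochondrial genome were among those nearest to being lowest in E8.5 Endo, with *mt-Nd2* at 902.9 CPM against 1749 in E8.5 HPC and 5312 in E10.5 Endo, and *mt-Nd5* at 1106 against 1697 and 2953.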
